A study of Mus musculus with 14 samples.

Results

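Cd22, Cd72, Fcrla, Cd24a and Bst1 are 5 genes for proteins that B-lineage cells carry on their surface or, for Fcrla, inside the cell, and their chromatin was described here in 9 lists of ChIP-seq peaks. The genes were given as a named set, not picked by a rule on their measured values, but with earlier results of these data known. They are 5 of 21887 protein-coding genes in the mouse gene table. A peak was assigned to a gene when it overlapped the gene's interval in GRCm38 extended by 10 kb on either side. Under that rule 135 of the 196179 peaks in the 9 lists lay near the 5 genes, and each gene had at least 1 peak in 8 or more of the lists.

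The study asked how the C-terminal domain of EBF1 affects the recruitment of Brg1 to chromatin. EBF1 is the transcription factor that starts the B-cell programme, and Brg1 is the ATPase of the BAF remodelling complexes, which move nucleosomes and open chromatin. Fetal liver cells were c-kit+ lymphocyte progenitors of EBF1 -/- C57BL/6 embryos of day 16 to 18. They received a pMys retroviral vector with IRES-GFP and were cultured for 14 to 20 days on OP9 stroma with IL7, SCF and Flt3. The 5 fetal liver groups carried the empty vector, EBF1 wt, EBF1 dC (lacking the C-terminal domain), EBF1 dPLD (residues 480 to 520 removed) or EBF1 F-GATA3 (the C-terminal domain exchanged for the TA1 domain of GATA3). By the labels, wt and F-GATA3 cells were at the pro-B stage, dC and dPLD cells were partly blocked ahead of it, and empty-vector cells were blocked ahead of it. The other cells were C57BL/6 pro-B cells transformed with Abelson murine leukemia virus (A-MuLV), from EBF1 fl/fl fetal liver, in which the endogenous EBF1 had been replaced by wt or dC. In these, Brg1 and EBF1 were both immunoprecipitated. Crosslinking differed as well: 2% formaldehyde after EGS in fetal liver cells, 1% after EGS for Brg1 in A-MuLV cells, and 1% without EGS for EBF1. Kind of cell and crosslinking therefore cannot be told apart wherever values of both are set side by side. Each of the 9 groups was 1 library, so no difference between conditions could be tested and no spread between replicates is known. Stage and EBF1 version changed together among the fetal liver groups and cannot be told apart.

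CD22, a sialic acid-binding lectin, and CD72, a C-type lectin whose ligand is the semaphorin encoded by Sema4d, are inhibitory coreceptors of the B-cell receptor that bring the phosphatase SHP-1 to their phosphorylated tails. Fcrla encodes an Fc receptor-like protein that stays inside B cells. Cd24a encodes CD24, the GPI-anchored heat-stable antigen, one of the markers by which early B-cell stages in mouse bone marrow are sorted. Bst1 encodes CD157, a GPI-anchored ectoenzyme related to CD38 that early lymphoid cells and stromal cells carry.

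The fetal liver lists held between 17687 (empty vector) and 30301 (dC) Brg1 peaks, the A-MuLV Brg1 lists 24493 (wt) and 24420 (dC), and the EBF1 lists 6155 (wt) and 11147 (dC). The depth of the libraries is unknown, so a missing peak call does not mean that the protein was absent. The A-MuLV Brg1 lists reach down to a −log10 q of 1.37 (wt) and 1.33 (dC), where the other 7 lists end near 10. As a check of the labels, 8 pro-B marker genes were searched for Brg1 peaks within 10 kb. All 8 had one in each of the 4 fetal liver lists with an EBF1 version, and 4 did with the empty vector. Of 5 myeloid markers, 5 had a Brg1 peak with the empty vector, 3 with each of wt, dC and dPLD and 2 with F-GATA3. Of 7 T and innate lymphoid markers, 4 had one in every fetal liver list, and of 5 markers of stroma at most 1 did. Peaks at the pro-B markers numbered 9 with the empty vector and 34 to 45 with an EBF1 version, and peaks at the myeloid markers 14 and 2 to 7. The part of cell composition in the results below was not tested.

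The empty-vector list had 7 Brg1 peaks near the 5 genes, against 20 with EBF1 wt, 17 with dC, 19 with dPLD and 18 with F-GATA3. Cd24a was the gene with no empty-vector peak, and Cd72 was the gene whose peaks numbered 3 in all 5 fetal liver lists. A peak within 10 kb was itself common: in fetal liver lists 45.2% of all protein-coding genes had one with the empty vector, 62.9% with wt, 63.3% with dC, 61.7% with dPLD and 60.0% with F-GATA3, and 52.2% (wt) and 52.1% (dC) in the A-MuLV Brg1 lists. Of the 5 genes, 4 had one with the empty vector and all 5 in each of the other Brg1 lists. Of the 20 wt peaks, 13 (65.0%, exact Clopper-Pearson 95% interval 40.8 to 84.6, counting error only) overlapped no empty-vector peak and are called gained. Over the whole wt list 63.9% of peaks were gained, so the share at the 5 genes was near the background. With a −log10 q of at least 20 both shares were higher, at 15 of 17 (88.2%) against 84.1%, and with lists of equal length both were lower, at 9 of 16 (56.2%) against 53.3%. By gene, 4 gained peaks lay at Cd22, 0 at Cd72, 2 at Fcrla, 2 at Cd24a and 5 at Bst1.

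**Figure D1:**
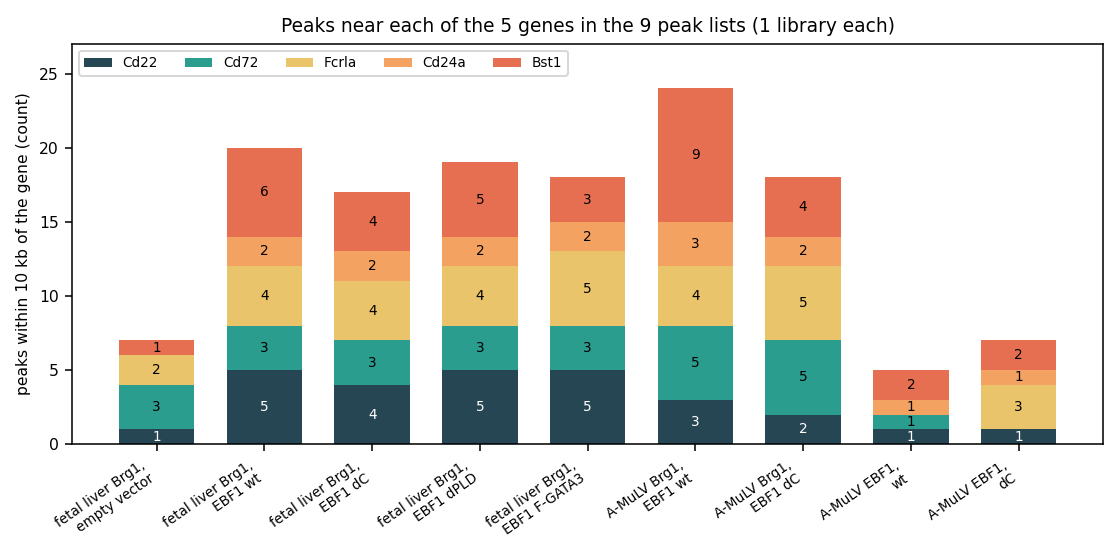
Number of peaks (y axis) within 10 kb of each of the 5 genes, stacked by gene in colour, in each of the 9 peak lists (x axis, 1 library each, no error). The empty-vector bar reaches 7 and the 4 fetal liver bars with an EBF1 version reach 17 to 20.

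The gained peaks were found again with each altered EBF1. The dC list held a peak at 12 of the 13 gained peaks (92.3%, 64.0 to 99.8), where 76.3% of all gained peaks had one. The dPLD list also held 12 of 13 (92.3%, with 77.2% over all gained peaks). The F-GATA3 list held 11 of 13 (84.6%, 54.6 to 98.1, with 70.0% over all). All 3 altered versions held the same 11 of the 13, against 57.3% of gained peaks genome-wide. Gained or not, 18 of the 20 wt peaks (95% interval 68.3 to 98.8%) were called with all 3 altered versions, against 68.0% of the wt list. By fold, the 20 peaks had a median percentile of 70.9 in the wt list, and these backgrounds were not matched for fold. The gained peaks missing from a list were both at Bst1, with authors' folds of 6.55 and 6.76, below the median of the wt list. In the other direction, 0 of 17 dC peaks and 0 of 19 dPLD peaks at the 5 genes lacked a wt counterpart, where 20.8% and 13.1% of those lists did. One F-GATA3 peak of 18, in Fcrla, lacked one, where 9.36% of that list did. Each of the 7 empty-vector peaks had a wt counterpart, where 38.7% of that list had none. Summits of overlapping peaks lay more than 200 bp from the wt summit at 1 of 7 peaks with the empty vector (22.3% over the lists), 2 of 19 with dC (13.7%), 1 of 19 with dPLD (14.0%) and 1 of 18 with F-GATA3 (12.7%).

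To follow single places, overlapping peaks of all lists were merged into 25 sites, numbered along the chromosome within each gene. Of these, 7 had a fetal liver Brg1 peak in all 5 lists and 11 had one with all 4 EBF1 versions but not with the empty vector. A further 3 were called with 1 to 3 of the EBF1 versions, and 4 in no fetal liver list. Sites at the edge of a window include peaks that overlap them from outside it. This matters at Cd22 site 5 and Bst1 site 1, where the dC peak, and at Bst1 also the F-GATA3 peak, ended short of the window and so is missing from the counts above. Each peak carries the authors' fold enrichment, the ratio of ChIP signal to local background at the summit, and the value given for a site is its highest peak. These folds rank peaks within 1 list. Across lists they are set side by side without a test.

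**Figure D2:**
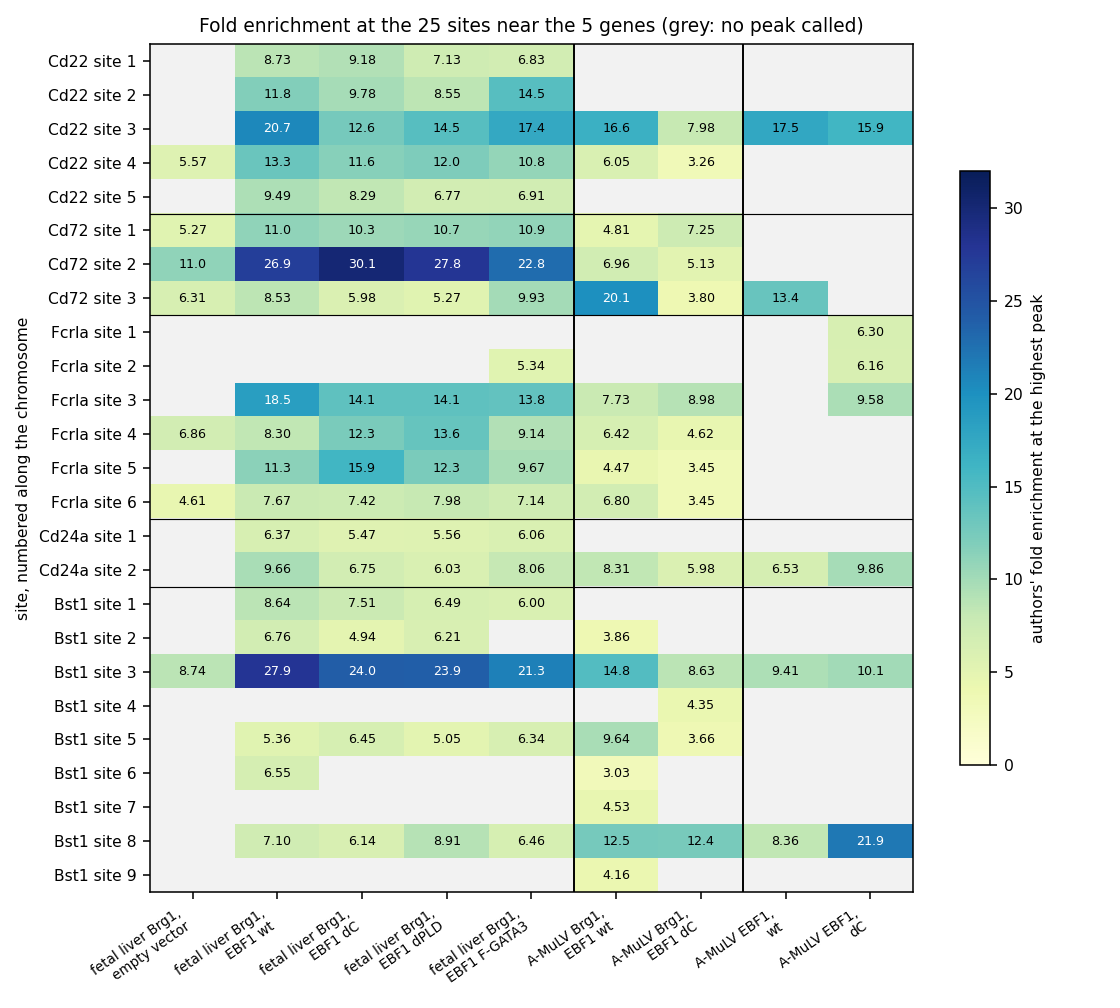
Authors' fold enrichment (colour scale and printed value) at the 25 sites (y axis, grouped by gene) in the 9 peak lists (x axis); grey cells have no called peak. Sites filled in the 4 columns of fetal liver cells with EBF1 and grey in the empty-vector column number 11, and the highest folds are at Cd72 site 2 and Bst1 site 3.

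**Figure D3:**
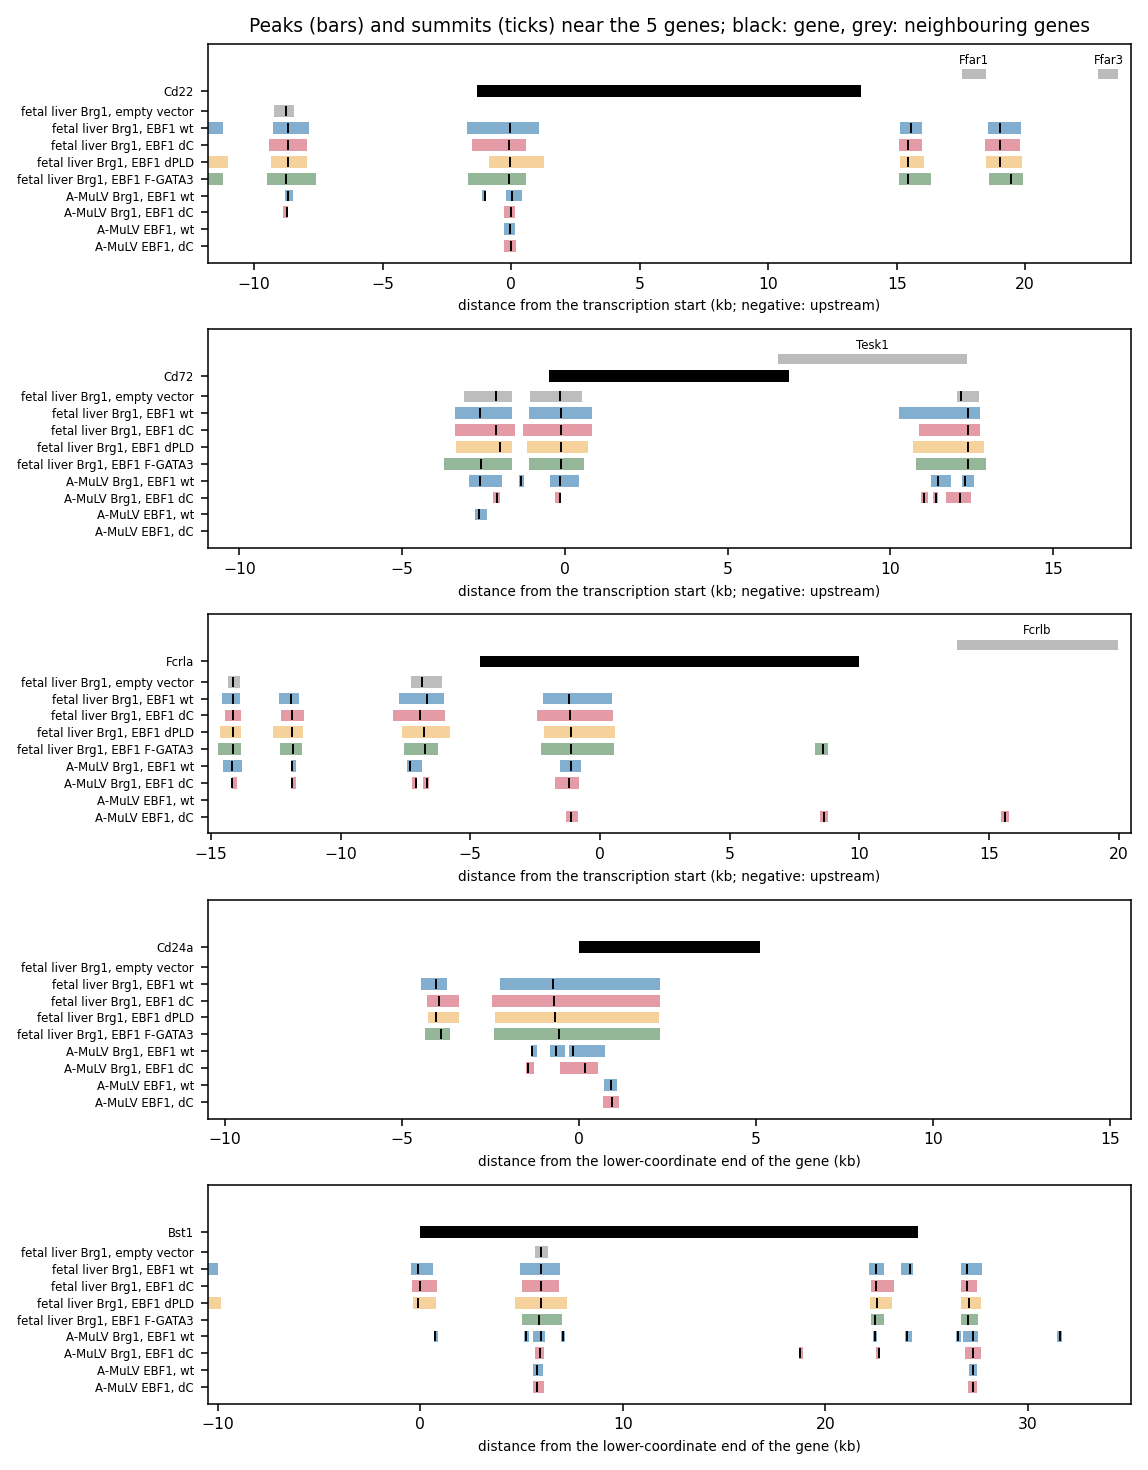
Position of peaks (bars) and their summits (ticks) along each gene's window in the 9 lists (rows), in kb from the transcription start for Cd22, Cd72 and Fcrla and from the lower-coordinate gene end for Cd24a and Bst1; black bars are the genes and grey bars above them neighbours, and what lies outside a window is not drawn. Empty-vector peaks near Cd22 are limited to the site 8.70 kb upstream, and Cd24a has none.

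Cd22 (gene ID 12483, chr7:30865404-30880342, minus strand) gained Brg1 at its promoter. The start used here, from the promoter table, lies at 30879028, inside the gene interval, and the gene table gives no exons. The promoter peak, Cd22 site 3 at chr7:30877768-30880760, had a fold of 20.7 (wt), 17.4 (F-GATA3), 14.5 (dPLD) and 12.6 (dC), and no peak was called with the empty vector. Wt was thus the highest and dC the lowest of the 4 called values. In A-MuLV cells the same site had a Brg1 fold of 16.6 (wt) and 7.98 (dC), again lower with the shortened EBF1. EBF1 was called there with both forms, at 17.5 for wt and 15.9 for dC. The wt summit of Brg1 in fetal liver cells was 54 bp upstream of the start and 12 bp from the A-MuLV EBF1 wt summit. Within A-MuLV wt cells the Brg1 summit was 59 bp from that EBF1 summit.

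Because EBF1 and Brg1 summits met within this promoter, its RefSeq sequence (GRCm38.p6, chr7:30879029-30879278, minus strand, 250 bases before the start, written 5′ to 3′) was searched for letters of the EBF1 consensus, TCCC and GGGA with any 2 bases between them, which read alike on both strands. Capitals mark the single match.
Cd22: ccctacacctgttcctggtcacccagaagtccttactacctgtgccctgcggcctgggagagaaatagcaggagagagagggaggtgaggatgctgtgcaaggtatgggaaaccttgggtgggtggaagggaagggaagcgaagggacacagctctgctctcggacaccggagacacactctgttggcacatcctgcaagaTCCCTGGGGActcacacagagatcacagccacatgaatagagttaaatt

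The match TCCCTGGGGA lies 40 to 49 bp upstream of the start, at chr7:30879068-30879077. The EBF1 wt summit was 2.50 bp from its centre and the EBF1 dC summit 22.5 bp. These letters occur in 0.780% of the 32817 promoters of this length, and in 10.2% of the 617 that overlap an EBF1 wt peak. A match describes the sequence alone and is not a measured binding site. Of the 7 Brg1 lists, 5 placed a summit inside this window, and 6 had a peak over it.

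The other Cd22 sites had lower folds in each list that called the promoter. Site 4, 8.70 kb upstream, was the place near Cd22 with a Brg1 peak under the empty vector, at a fold of 5.57. It had 13.3 with wt, 11.6 with dC, 12.0 with dPLD and 10.8 with F-GATA3, and 6.05 and 3.26 in A-MuLV cells with wt and dC. Site 2, 15.5 kb downstream of the start, was gained, with folds of 11.8 (wt), 9.78 (dC), 8.55 (dPLD) and 14.5 (F-GATA3). Here F-GATA3 was the highest. Site 1, 19.0 kb downstream and beside Ffar1, a gene for a fatty acid receptor, had folds from 6.83 (F-GATA3) to 9.18 (dC). Site 5, 11.9 kb upstream, had 9.49 with wt, 8.29 with dC, 6.77 with dPLD and 6.91 with F-GATA3. Sites 1, 2 and 5 had no peak in any of the 4 A-MuLV lists, although the A-MuLV Brg1 lists admit weaker peaks.

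Cd72 (gene ID 12517, chr4:43447724-43455102, minus strand, start 43454626) differed in that all 3 of its sites had a Brg1 peak without EBF1. Its promoter, site 2 at chr4:43453786-43456046, was the highest peak of the empty-vector list near the 5 genes, with a fold of 11.0 (rank 748 of 17687). With EBF1 the fold was 26.9 (wt, rank 65 of 29354), 30.1 (dC, rank 8 of 30301), 27.8 (dPLD, rank 8 of 27550) and 22.8 (F-GATA3, rank 35 of 25072). It was therefore among the strongest Brg1 peaks of each fetal liver list with an EBF1 version, dC and dPLD included. No EBF1 peak of either form was called at the promoter. In A-MuLV cells the promoter held Brg1 at folds of 6.96 (wt) and 5.13 (dC), at percentiles of 74.3 and 50.1 of those lists.

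The Cd72 promoter is shown because all 7 Brg1 lists placed a summit in it (wt summit 111 bp upstream of the start) while no EBF1 peak lay there (RefSeq, GRCm38.p6, chr4:43454627-43454876, minus strand, 250 bases before the start, 5′ to 3′). Neither the consensus letters nor their shorter form, CCC and GGG with any 2 bases between them, which 11.8% of all promoters hold, occurs in it, so no letter is in capitals.
Cd72: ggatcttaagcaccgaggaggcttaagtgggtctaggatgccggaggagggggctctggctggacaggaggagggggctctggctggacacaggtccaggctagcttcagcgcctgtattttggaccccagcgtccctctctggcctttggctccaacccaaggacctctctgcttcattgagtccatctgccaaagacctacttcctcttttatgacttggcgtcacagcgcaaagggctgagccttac

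The upstream site of Cd72, site 3, 2.60 kb before the start, was the one EBF1 wt peak near the 5 genes that was not called with dC. EBF1 wt had a fold of 13.4 at chr4:43457027-43457389, and the dC list had no peak there. Over the whole EBF1 wt list 76.7% of peaks were also called with dC, and near the 5 genes 4 of 5 were (80.0%, 28.4 to 99.5). Brg1 in A-MuLV cells with wt had a fold of 20.1 (rank 131 of 24493), the highest Brg1 peak of that list near the 5 genes. With dC the fold was 3.80, at a percentile of 10.6 of its list, and the peak, chr4:43456614-43456845, did not overlap the EBF1 interval.

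In fetal liver cells the Cd72 upstream site was called in all 5 lists, and it was the place of the summit that varied. The Brg1 summit lay 22 bp from the EBF1 wt summit with wt and 43 bp from it with F-GATA3. It lay 518 bp away with the empty vector, 521 bp with dC and 625 bp with dPLD, each time towards the gene. The folds were 8.53 (wt) and 9.93 (F-GATA3), against 6.31 (empty vector), 5.98 (dC) and 5.27 (dPLD). A-MuLV cells showed the same placing, with a summit 30 bp away with wt and 533 bp away with dC. This contrast was chosen after the values had been seen. It was rare among EBF1 wt peaks with Brg1 called in all 5 fetal liver lists, the only ones counted. Among the 40 EBF1 wt peaks not called with dC that had Brg1 in all 5 fetal liver lists, Cd72 was the 1 site (2.50%) whose summits were within 200 bp with wt and F-GATA3 alone. Among 940 EBF1 sites called with both forms, 18 (1.91%) had that placing and 3 the opposite one. Among all EBF1 wt peaks not called with dC, the share with a Brg1 summit within 200 bp was also taken where a given list had Brg1. It was 80.8% (wt), 83.2% (F-GATA3), 64.2% (dPLD), 55.4% (dC) and 42.6% (empty vector) in fetal liver cells. The sequence of the Cd72 upstream site was not used here.

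**Figure D4:**
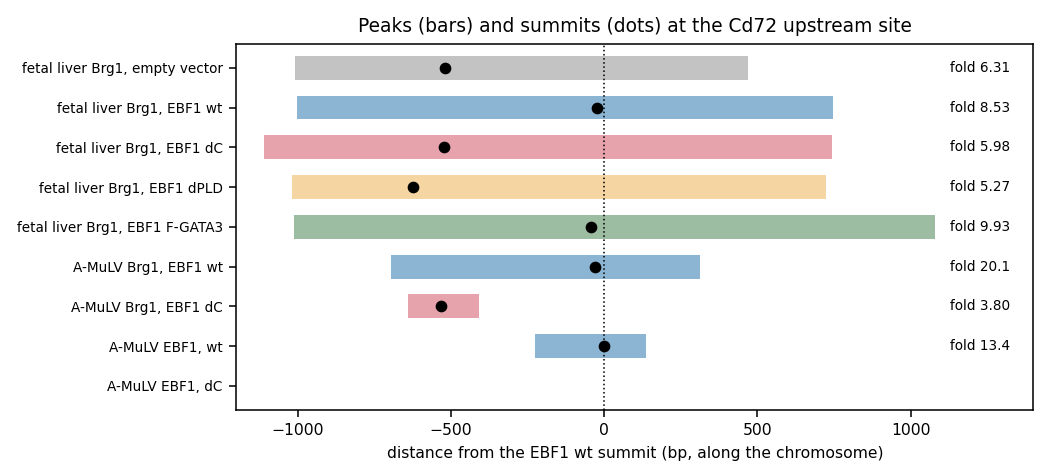
Peak extent (bars) and summit (dots) of the 9 lists at the Cd72 upstream site, in bp from the EBF1 wt summit along the chromosome (x axis); the authors' fold stands at the right. Brg1 summits of wt and F-GATA3 fetal liver cells and of wt A-MuLV cells sit 22 to 43 bp from the EBF1 summit, and the other 4 sit 518 to 625 bp from it.

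The third Cd72 site, site 1, lies 12.4 kb downstream at the lower-coordinate end of Tesk1, a kinase gene, and so is near both genes. Its folds were 5.27 with the empty vector and 11.0 (wt), 10.3 (dC), 10.7 (dPLD) and 10.9 (F-GATA3) with EBF1. The 4 versions lay close together and above the empty vector's value. In A-MuLV cells it had 4.81 with wt and 7.25 with dC, one of 2 sites among the 5 genes, with Fcrla site 3, whose A-MuLV Brg1 fold was higher with dC.

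Fcrla (gene ID 98752, chr1:170917594-170932216, minus strand, start 170927583) had 6 sites. Site 3, at chr1:170927004-170930026, held the highest Brg1 peak near Fcrla in each list that called it except fetal liver dC, where site 5 was higher. It was gained 1.18 kb upstream of the start used here, within the gene interval. Its folds were 18.5 (wt), 14.1 (dC), 14.1 (dPLD) and 13.8 (F-GATA3), with no empty-vector peak. Wt was the highest and the 3 altered versions lay together. In A-MuLV cells Brg1 had folds of 7.73 with wt and 8.98 with dC. EBF1 dC was called there at a fold of 9.58, and EBF1 wt was not. Brg1 summits fell 10 to 76 bp from the EBF1 dC summit in the 6 Brg1 lists that held the site, both wt lists included, although no EBF1 wt peak was called.

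The promoter window of Fcrla is printed for contrast with Cd22. No Brg1 summit fell inside it, and 4 lists had a peak that reached over it (RefSeq, GRCm38.p6, chr1:170927584-170927833, minus strand, 250 bases before the start, 5′ to 3′). It holds neither form of the consensus letters.
Fcrla: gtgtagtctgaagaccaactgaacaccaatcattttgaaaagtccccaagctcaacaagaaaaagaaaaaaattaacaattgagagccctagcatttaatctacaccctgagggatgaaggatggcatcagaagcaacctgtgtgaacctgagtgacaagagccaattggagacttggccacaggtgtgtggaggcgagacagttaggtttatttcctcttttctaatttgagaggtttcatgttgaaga

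EBF1 dC was called at all 3 places where EBF1 bound near Fcrla, and EBF1 wt at none. Besides site 3 these were site 1, with a fold of 6.30, inside the paralogue Fcrlb, and site 2, with a fold of 6.16. Neither had a Brg1 peak in A-MuLV cells. At site 2 the F-GATA3 fetal liver list had a Brg1 peak with a fold of 5.34, and the summits of both proteins were 29 bp apart. Over the whole EBF1 dC list 57.9% of peaks were not called with wt, and near the 5 genes 3 of 7 were not (42.9%, 9.90 to 81.6), all of them at Fcrla. The EBF1 dC list is the longer of the pair. With both lists held to equal length, or with a −log10 q of at least 20, 1 of the 3 Fcrla peaks was left, that of site 3.

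Upstream of Fcrla, 3 sites were shared by both kinds of cell. Site 4, 6.68 kb upstream, had 6.86 with the empty vector and 8.30 (wt), 12.3 (dC), 13.6 (dPLD) and 9.14 (F-GATA3) with EBF1. Site 5, 11.9 kb upstream, was gained, with 11.3 (wt), 15.9 (dC), 12.3 (dPLD) and 9.67 (F-GATA3). At both, the dC and dPLD folds exceeded those of wt and F-GATA3, the reverse of the order at the Cd22 promoter. Site 6, 14.2 kb upstream, had 4.61 with the empty vector and from 7.14 (F-GATA3) to 7.98 (dPLD) with EBF1. In A-MuLV cells all 3 had lower folds with dC: 4.62 against 6.42, 3.45 against 4.47 and 3.45 against 6.80.

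Cd24a (gene ID 12484, chr10:43579169-43584265) had no Brg1 peak with the empty vector and the same 2 sites with every EBF1 version. Site 2, at chr10:43576709-43581466, was the broadest Brg1 interval near the 5 genes. It covered 4524 bp with wt, 4756 bp with dC, 4645 bp with dPLD and 4694 bp with F-GATA3, where the median peak of those lists was 1103 to 1325 bp wide. Its folds were moderate, at 9.66 (wt), 8.06 (F-GATA3), 6.75 (dC) and 6.03 (dPLD). The order placed wt and F-GATA3 above dC and dPLD, as at the Cd72 upstream site. In A-MuLV cells Brg1 had 8.31 with wt and 5.98 with dC, and EBF1 had 6.53 with wt and 9.86 with dC. The EBF1 wt summit was 1447 to 1625 bp from the fetal liver Brg1 summits, so there the interval was shared and the summits lay apart. In A-MuLV cells with dC, no Brg1 peak overlapped the EBF1 peak of either form. Site 1, 4.04 kb below the lower-coordinate end of the gene, had folds of 5.47 (dC) to 6.37 (wt) and no A-MuLV peak. The promoter table used here has no entry for Cd24a or Bst1, and no strand is given for them.

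Bst1 (gene ID 12182, chr5:43818880-43843468) had the most sites, 9, and the most varied ones. Site 3, at chr5:43823543-43826132 and 5.96 kb inside the lower-coordinate end, had a Brg1 peak in all 7 Brg1 lists and an EBF1 peak in both EBF1 lists. It was the highest Bst1 site in each of these except the A-MuLV Brg1 dC and EBF1 dC lists, where site 8 was higher. Its fold was 8.74 with the empty vector, 27.9 with wt (rank 45 of 29354), 24.0 with dC, 23.9 with dPLD and 21.3 with F-GATA3. The 4 values with EBF1 stood together and above the empty vector's. In A-MuLV cells Brg1 had 14.8 with wt (rank 388) and 8.63 with dC (rank 1777), with EBF1 folds of 9.41 (wt) and 10.1 (dC). The summit hardly moved: it lay 115 to 198 bp from the EBF1 wt summit in all 7 Brg1 lists, empty vector included.

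Site 8 of Bst1, at chr5:43845563-43846623, 2.40 kb past the upper-coordinate end, carried the strongest EBF1 dC peak near the 5 genes, with a fold of 21.9 (rank 799 of 11147). EBF1 wt had 8.36 there. Brg1 in A-MuLV cells had nearly equal folds, 12.5 (wt) and 12.4 (dC). In fetal liver cells the site was gained with low folds, 7.10 (wt), 6.14 (dC), 8.91 (dPLD) and 6.46 (F-GATA3). Brg1 summits were 12 and 35 bp from the EBF1 wt summit in A-MuLV cells and 207 to 320 bp from it in fetal liver cells.

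The remaining Bst1 sites had folds below 10. Site 5, inside the gene 2.08 kb from its upper-coordinate end, had fetal liver folds of 5.05 to 6.45 with every EBF1 version and A-MuLV folds of 9.64 (wt) and 3.66 (dC). Site 2, at the lower-coordinate end, had 6.76 with wt, 4.94 with dC and 6.21 with dPLD, and no peak with F-GATA3. Site 6, inside the gene 0.426 kb from its upper-coordinate end, was called with wt alone, at 6.55 in fetal liver and 3.03 in A-MuLV cells. Site 1, 10.7 kb below the gene, was called with all 4 EBF1 versions at folds of 6.00 to 8.64. Sites 7 and 9 were called in A-MuLV wt alone (4.53 and 4.16) and site 4 in A-MuLV dC alone (4.35).

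Between the A-MuLV Brg1 lists, 16 of the 24 wt peaks near the 5 genes were also called with dC (66.7%, 44.7 to 84.4), against 62.4% of the whole wt list. Of 18 peaks in the dC list, 15 had a wt counterpart (83.3%, 58.6 to 96.4), against 65.6%. Of the 8 wt peaks without a dC counterpart, 6 were at Bst1, 1 at Cd22 and 1 at Cd72. Those at Cd22 and Cd72 lay inside Cd22 site 3 and Cd72 site 2, which both lists called. Of whole sites, 4 were called with wt alone, all at Bst1. The folds of the 8 peaks were 3.03 to 4.53. By an overlap of 1 bp, every A-MuLV wt Brg1 peak near the 5 genes with a fold above 4.53 was thus also called with dC. When summits had to lie within 200 bp, 11 of the 24 (45.8%) were, and the upstream Cd72 peak (20.1), a Bst1 peak (9.64, site 5) and a Cd24a peak (8.31) were among those lost. At the 13 sites called in both lists, the wt fold was higher at 11. With 1 library each, this count is a description. The wt list as a whole also had the higher median fold, 5.39 against 5.10 with dC. The share over all sites called in both lists was not counted. Fetal liver wt peaks were called in A-MuLV wt cells at 14 of 20 (70.0%), against 49.7% of all fetal liver wt peaks. From the A-MuLV side, 19 of 24 wt peaks (79.2%) were called in fetal liver wt cells, against 81.8% of that list, and 17 of 18 dC peaks (94.4%) in fetal liver dC cells, against 87.6%. Of the 20 fetal liver wt peaks, 6 (30.0%) overlapped an EBF1 peak of either form, against 22.4%, and 5 (25.0%) an EBF1 wt peak, against 13.4%.

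EBF1 was called at 8 of the 25 sites. All 5 EBF1 wt peaks overlapped an A-MuLV Brg1 wt peak (72.0% over the whole EBF1 wt list). At Cd24a that Brg1 peak had a fold of 4.83 and a summit 1071 bp from the EBF1 summit. The EBF1 wt peak there stood at a percentile of 12.0 of its list. Of 7 EBF1 dC peaks, 4 overlapped an A-MuLV Brg1 dC peak (57.1%, against 46.1%). In the EBF1 wt list 4 of the 5 genes had a peak, where 19.9% of all genes did. The missing gene was Fcrla. In the dC list 4 of 5 had one, where 32.9% of genes did, and the missing gene was Cd72. Near Cd22 and at Bst1 site 3 the Brg1 summit kept within 200 bp of the EBF1 summit in each list that called it. At Cd72 it did so in 3 of the Brg1 lists, and at Cd24a in none. Over the 940 EBF1 sites called with both forms and with Brg1 in all 5 fetal liver lists, the median distance was 226 bp with the empty vector and 100 (wt), 130 (dC), 116 (dPLD) and 89 bp (F-GATA3) with EBF1. Over the sites with Brg1 in a given list, 983 with the empty vector and 2801 to 3630 in each other Brg1 list, the fetal liver medians were 226, 60, 82, 77 and 53 bp in the same order.

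**Figure D5:**
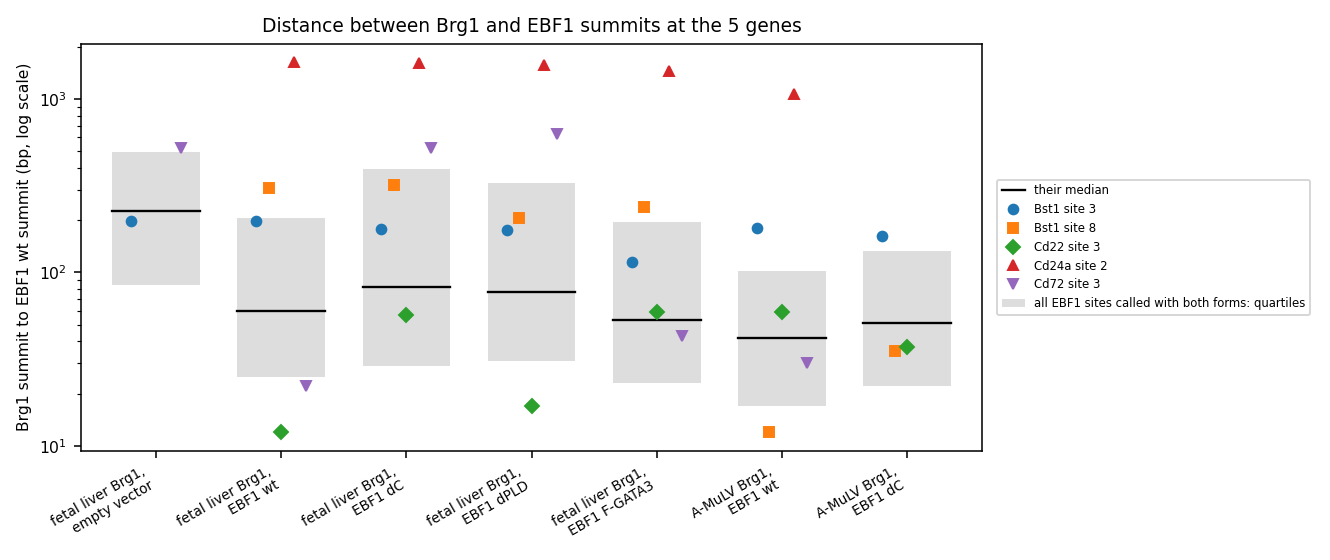
Distance in bp (y axis, log scale) between the EBF1 wt summit and the Brg1 summit at the 5 EBF1 wt sites near Cd22, Cd72, Cd24a and Bst1 (coloured symbols) in the 7 Brg1 lists (x axis). Grey boxes span the quartiles, and black lines mark the median, of all EBF1 sites called with both forms and with Brg1 in that list. The Cd72 symbol moves from 22 bp with wt to 521 bp with dC, and Cd24a stays at 1071 bp or more. The Cd72 EBF1 peak was not called with dC, so the boxes do not cover its class. For EBF1 wt peaks not called with dC, the upper quartile was 678 bp with fetal liver dC and 529 bp with the empty vector.

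Other genes of the same pathway were read from a list of 32 B-cell coreceptors, Fc receptors and signalling proteins. Of these, 29 had a gained Brg1 peak within 10 kb (90.6%, 75.0 to 98.0), where 48.9% of all protein-coding genes did. The list was chosen with earlier results of these data known, so this share is a description. Its interval covers counting error only. The median number of gained peaks was 2 on the list and 0 over all genes. Among the 5 genes 4 had one, and Cd72 did not. The highest gained folds were at Cd79b (22.3) and Cd79a (19.3), the signalling chains of the B-cell receptor, at the kinase gene Syk (20.2) and at Inpp5d (19.2), the gene of the lipid phosphatase SHIP1. The Cd22 promoter, at 20.7, was the one gained peak of the 5 genes in this range. Ptpn6, which encodes SHP-1, the phosphatase that CD22 and CD72 recruit, had 6 Brg1 peaks with the empty vector and 8 with wt, and 2 of the wt peaks were gained, the higher at 6.37. Siglecg, a lectin gene related to Cd22, had 1 gained peak at 15.0 with wt, 13.0 with dC, 11.5 with dPLD and 11.2 with F-GATA3. Cd38, the paralogue of Bst1, had 1 gained peak at 5.01, and its highest wt peak, at 19.6, was shared with the empty vector. Fcrlb, whose window overlaps that of Fcrla, had 1 gained peak at 4.80.

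The genes whose highest peaks stood most alike over the 9 lists were found from the percentile of each gene's highest peak within its list, as the mean absolute difference in percentile points. For Cd22 they were Il16 (3.26), Kcnh4 (3.91) and Vpreb2 (4.02), for Cd72 AI467606 (5.14), Rapgef3 (6.08) and Tbc1d5 (7.73), and for Fcrla Mfsd6 (1.83), Plekho2 (2.74) and Mlec (2.75). Cd24a was closest to Lgals4 (5.91), Hibadh (7.02) and Lrp11 (7.21), and Bst1 to Sec22c (1.52), Pygm (2.48) and Rasgrp2 (2.48). None of the 5 genes was among the 3 nearest of another.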

How the data were processed

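Brg1 and EBF1 ChIP-seq peak lists of 9 libraries were used, 1 per group. Inputs and signal tracks were not analysed here. Per the submitters' processing notes, the tools were MACS2 2.1.2, Bowtie2 2.3.3.1, deepTools 3.3.1 and SAMtools 1.9, on GRCm38. Threshold, input and treatment of duplicates: not given in the sources used here. Lists were deposited one per sample and give base positions, a fold (the ratio of signal over local background at the summit), −log10 p and −log10 q values. A score, deposited beside them, repeats the −log10 q multiplied by 10, without decimals. Column meanings come from the peak format and were checked on the values.

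From these, peaks within 10 kb of the 5 genes were counted, with gene positions of a RefSeq table for GRCm38.p6. Peaks counted as shared at an overlap of at least 1 bp. Shares carry exact Clopper-Pearson 95% intervals, which cover counting error only. Promoter sequences were found for 3 of the 5 genes. The overlap code was tested on simulated data. Python 3.11.15, pandas 2.3.3, NumPy 2.4.6, SciPy 1.17.1 and Matplotlib 3.10.9 were used. Named were the 5 genes, their neighbours, the 4 list genes with the highest gained fold with Cd38, Fcrlb, Siglecg and Ptpn6, and the 3 genes most alike. The members and lists were chosen with earlier results of these data known. Alternatives were gene bodies alone or with 50 kb added, a minimum −log10 q of 20, lists of equal length, summits in the window or within 200 bp, an overlap of 50% of the shorter peak and the shorter consensus letters.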

Additional observations from a re-analysis of the deposited data

How the results depend on the processing

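With gene bodies alone, the peak counts near the 5 genes were in fetal liver cells 8 (wt), 2 (empty vector) and 7 with each of dC, dPLD and F-GATA3, 11 (wt) and 7 (dC) for A-MuLV Brg1 and 3 for EBF1 wt, and gained peaks numbered 6 of 8. All 3 EBF1 wt peaks were then called with dC (100%). With 50 kb, they were 42 (wt), 21 (empty vector), 45 (dC), 39 (dPLD) and 36 (F-GATA3), 53 and 37 for A-MuLV Brg1, 10 for EBF1 wt and 13 for EBF1 dC, and gained peaks numbered 25 of 42. By construction these windows search fewer or more bases. With a −log10 q of at least 20, the empty-vector list kept 2 peaks, A-MuLV Brg1 4 (wt) and 1 (dC) and EBF1 wt 3, and 25.0% of the 4 A-MuLV wt peaks were called with dC. With lists of equal length, all 9 gained peaks were called with dPLD (100%). Of the remaining values for the 5 genes as a set, 55 stayed within 1.5 times the count or within their interval. For single genes 131 did and 95 moved, many of them counts of a few peaks. No replicate could be left out, and no paired analysis was possible because each group had 1 library. The unknown depth and the different −log10 q floors of the lists limit every statement that a peak is absent.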

Other observations

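Outside the 5 genes, 2 entries of the coreceptor list had peak patterns unlike those above, and both were picked after their values had been seen. Ms4a1, which encodes CD20, had no Brg1 peak with the empty vector or with dC. It had 3 peaks with wt (highest fold 16.5), 2 with dPLD (7.23) and 4 with F-GATA3 (13.9), and no peak in the 4 A-MuLV lists. Fcgr2b, the inhibitory Fc receptor of B cells, had 2 peaks with the empty vector (highest fold 6.59) and 1 with wt (16.6). With dC it had 4 (14.9), with dPLD 5 (13.5) and with F-GATA3 1 (10.2). In A-MuLV cells Brg1 had 4 peaks with wt (9.68) and 1 with dC (8.63). EBF1 had 1 peak with wt (9.67) and 1 with dC (7.93). Whether an interval was split in some lists and merged in others was not examined for Fcgr2b. Fcgr2b had no gained peak, as was the case for Fcrl6 and Cd53.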
